A study of Mus musculus with 4 samples.

Results

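The Mediator complex genes are the protein-coding rows of the count table whose symbol is Med followed by a number, with or without a final l, together with Cdk8, Cdk19 and Ccnc. By this rule 34 of the 22337 protein-coding rows were taken, carrying 33 symbols, because Med20 names 2 rows. They were grouped as 12 head rows, 9 middle genes, 5 tail genes, 7 kinase module genes and the backbone gene Med14. Of the 34 rows, 32 passed the filter on low counts, and the other 2, Med10 and 1 of the Med20 rows, are described at the end. Placing Med27, Med28, Med29 and Med30 in the head was a choice, and the alternative of placing them in the tail is given beside the module values.

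Mediator is the large protein complex that bridges transcription factors bound at enhancers and RNA polymerase II at promoters. Its head and middle modules contact the polymerase, its tail is the main target of activators, Med14 runs through the complex as a backbone, and a detachable kinase module of Cdk8 or Cdk19, cyclin C, Med12 and Med13 regulates its contact with the polymerase. In mouse embryonic stem cells (mESCs), Mediator is known for its presence at enhancers and promoters of actively transcribed genes, where CTCF, the insulator protein studied here, also shapes chromatin loops.

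Expression was measured by RNA-seq in WT_CTCF and MUT_CTCF mESCs, with 2 libraries per group. Both lines were made from CTCF-mAID mESCs, in which the endogenous CTCF carries a degron tag and was degraded with auxin, and both carried a vector for exogenous CTCF. The vector encoded wild-type CTCF in the WT_CTCF line and CTCF mutated at T668, which cannot carry O-GlcNAc at that site, in the MUT_CTCF line. Each line was a clone selected for exogenous CTCF near the endogenous level, so the mutation and the clone cannot be told apart. The study's methods call the 2 libraries of a line biological replicates, without saying whether they came from separate cultures. The p-values therefore set the group difference against the spread between these libraries, estimated with the help of all genes.

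Total counts per library were 40524694 to 40977464, of which over 99.9% lay in the 16264 genes tested (lowest library 99.95%). Ctcf itself had 18302 and 18669 normalized counts in WT_CTCF and 18791 and 19325 in MUT_CTCF mESCs, with endogenous and exogenous transcripts not separated, and it did not pass the test (log2 fold change 0.044, adjusted p = 0.499 from edgeR). The 10 mESC markers summed to 264541 to 268589 normalized counts per library, the 9 fibroblast markers to 1887 to 2143 with Lum at 0, and the 11 matched markers of differentiated lineages to 1212 to 1279. Of the mESC markers, Utf1 and Dppa5a were lower and Sox2 was higher in MUT_CTCF mESCs in edgeR and DESeq2 (adjusted p under 0.05), and edgeR's exact test called only Utf1. At an unadjusted p under 0.05, 4 of the 10 mESC markers were lower and 2 higher (edgeR). Of 9 differentiated lineage markers tested, Cdx2 was lower in both edgeR tests. Log2 fold changes of 6 of the 9 were above 0, the median of the 9 was 0.12, and 2 were higher at an unadjusted p under 0.05. None of the 6 fibroblast markers tested passed in either edgeR test, and 1 was lower at an unadjusted p under 0.05. Beside these counts, 1.61% of all 16264 genes tested were lower and 1.56% higher at an adjusted p under 0.05 (edgeR). At an unadjusted p under 0.05, 7.65% of all genes were lower and 7.61% higher, and 50.8% had log2 fold changes above 0. DESeq2 gave no adjusted p for the lineage and fibroblast markers. Their part in the values of Mediator genes was not tested, and in these bulk libraries fewer cells of a type and less RNA per cell cannot be told apart.

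Promoter sequences of 28 of the 33 symbols were in RefSeq's table for GRCm38.p6, which gives 300 bases around each of 32 transcript starts. Med11 is printed as the Mediator gene that passed the test below, and Med4 and Med19 because their promoters match the core consensus of CTCF, although neither gene passed the test. Each run holds the 200 bases that precede the transcript start, read 5′ to 3′ on the plus strand, and each was found once on its chromosome in the mm9 genome. Capitals mark matches to the CTCF core consensus, to CCGGAAG (ETS factors) and to GCGCATGC (NRF1) on either strand.
Med11, chr11:70265220-70265419: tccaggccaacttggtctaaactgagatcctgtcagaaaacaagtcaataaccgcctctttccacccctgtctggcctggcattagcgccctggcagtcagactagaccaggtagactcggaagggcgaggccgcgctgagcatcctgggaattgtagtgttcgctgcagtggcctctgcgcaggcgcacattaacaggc
Med4, chr14:73909656-73909855: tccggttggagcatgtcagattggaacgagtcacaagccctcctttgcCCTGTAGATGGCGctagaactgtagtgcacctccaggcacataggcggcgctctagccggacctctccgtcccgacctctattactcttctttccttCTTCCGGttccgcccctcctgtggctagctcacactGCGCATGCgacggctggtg
Med19, chr2:84518359-84518558: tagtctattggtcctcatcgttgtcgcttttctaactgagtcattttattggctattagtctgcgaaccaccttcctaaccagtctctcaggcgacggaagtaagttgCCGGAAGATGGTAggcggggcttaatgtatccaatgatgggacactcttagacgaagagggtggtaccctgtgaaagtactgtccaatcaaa
In Med4 the CTCF match lay 152 to 140 bases before the start, and the other capitals mark an ETS match on the minus strand and an NRF1 match. In Med19 the CTCF match lay 92 to 80 bases before the start, and its first 7 bases are also the ETS match. The 200 bases before Med11 held none of the motifs searched.

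Over the whole 300-base windows, the CTCF core consensus was found in 3 of the 32 Mediator promoters (Med4, Med10 and Med19), or 9.38%, against 4.09% of all 32851 promoters in the table. CCGGAAG was found in 9 windows of 8 genes, or 28.1% against 8.86%, namely in Med4, Med6, Med10, Med14, Med15, Med17, Med18 and Med19. GCGCATGC was found in 4 windows (Med4, Med15 and Med17), or 12.5% against 2.71%. AAGATGGCG (YY1) was found in none, against 1.4%, and TATAAA in 3 (Med7, Med16 and Med28), or 9.38% against 13.6%. The Mediator windows held a median of 20 CpG dinucleotides, from 3 in 1 Med27 window to 61 in Med13l, against a median of 7 over all windows. These are matches of letters on both strands, described without a test. The comparison holds every promoter of the table, whether or not its gene was tested here, and was not matched for CpG content.

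Mediator genes were expressed at levels that differed widely between subunits and little between libraries. Levels are given here in TPM, which are counts divided by the gene's exon length and scaled to the same sum in each library, so that genes can be compared. Summed over all members, they came to 1610 and 1600 TPM in the WT_CTCF libraries and to 1590 and 1600 TPM in the MUT_CTCF libraries. Med25, a tail subunit that binds the VP16 activation domain, had the highest level, at 184 and 189 TPM in WT_CTCF and 185 and 200 TPM in MUT_CTCF mESCs. It was above every other member in each library. Next by mean over the 4 libraries came Med9 (102 TPM), Med4 (91.9 TPM), Med30 (88.3 TPM), Med17 (86.9 TPM), Med24 (86.6 TPM) and Med29 (85.8 TPM), and from Med4 on the ranges over libraries of each neighbouring pair overlapped, while Med9 was above Med4 in every library.

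The lowest levels among tested members were those of Med12l (1.61 TPM, mean of the 4 libraries), the paralog of Med12, then Med13 (5.60 TPM), Med7 (8.61 TPM), Ccnc (9.09 TPM), Med14 (9.14 TPM) and Med20 (10.2 TPM). The libraries of Med7, Ccnc and Med14 overlapped in range, while Med12l and Med13 were each apart from the next gene in every library. By module, the head summed to 590 and 577 TPM in WT_CTCF and to 562 and 548 TPM in MUT_CTCF mESCs, so both MUT_CTCF libraries were below both WT_CTCF libraries. The middle summed to 454 and 454 against 460 and 465 TPM, the tail to 425 and 424 against 423 and 442 TPM, and the kinase module to 130 and 137 against 137 and 136 TPM. A level per length depends on the exons counted. By the longest transcript, Med25 (158 TPM) was still highest, but Med24 came next (103 TPM), above Med9 (85.2 TPM) and Med4 (76.5 TPM), and Ccnc (11.1 TPM) was above Med20 (10.9 TPM). Where the same counts were divided by only the length of exons that no other gene shares, Med19 had a mean of 91.2 instead of 80.6 TPM. Med31 then had 43.8 instead of 32.7 TPM. The counts themselves were not restricted to those exons, so any reads from shared exons would raise these values.

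**Figure D1:**
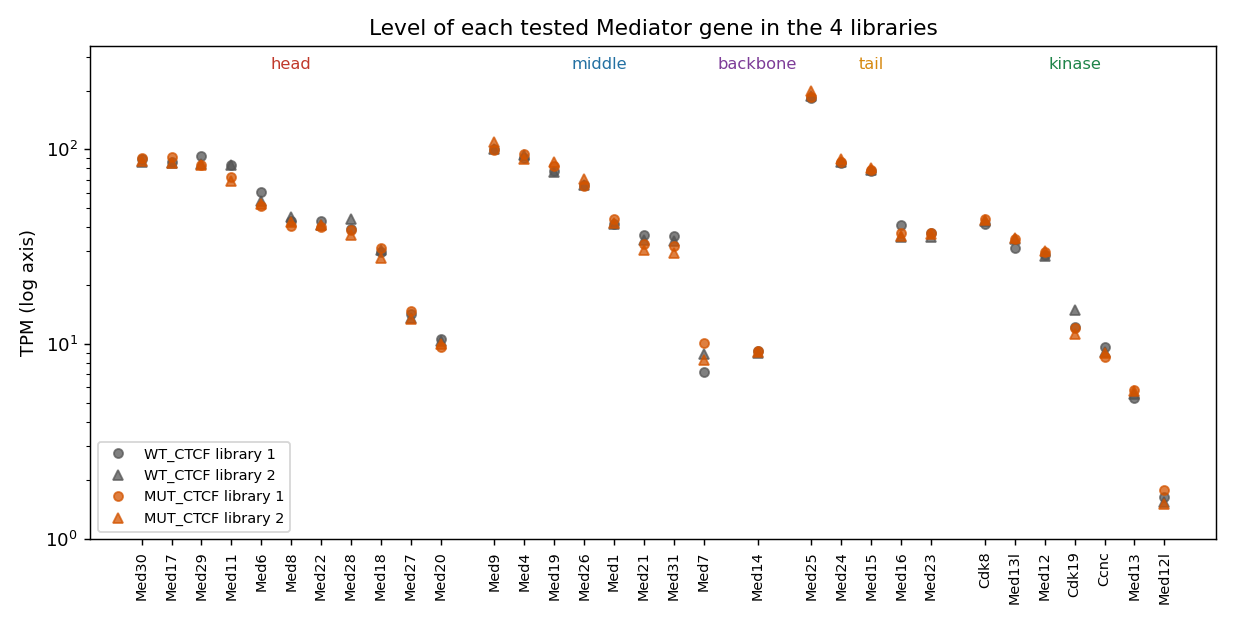
Level of each of the 32 tested Mediator rows in TPM (log axis), ordered by module and by mean level, with grey for WT_CTCF, orange for MUT_CTCF, circles for library 1 and triangles for library 2 of each group. Med25 lies at 184 to 200 TPM and Med12l at 1.51 to 1.77 TPM, and the 4 libraries of a gene lie close together on this scale.

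The comparison of MUT_CTCF with WT_CTCF mESCs asks whether Mediator genes differ in expression when CTCF cannot carry O-GlcNAc at T668. Differences were small. In edgeR's quasi-likelihood test, with p adjusted over every gene tested and a threshold of 0.05, 1 of the 32 members was lower in MUT_CTCF mESCs, Med11, or 3.12% beside 1.61% of all 16264 genes tested. None was higher, beside 1.56% of all genes, and none was higher by edgeR's exact test or, among the 20 members to which it gave an adjusted p, by DESeq2. At an unadjusted p under 0.05, 6 members were lower (18.8%, beside 7.65% of all genes) and 0 were higher (beside 7.61%). The 6 were Med11, Med6 and Med28 of the head, Med21 and Med31 of the middle and Cdk19 of the kinase module, and only Med11 among them passed the adjusted threshold.

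By the criterion of the study's methods, a fold change above 2 together with an unadjusted p under 0.05, no member was lower (beside 0.357% of all genes) or higher (beside 0.947%). The 95% intervals of the 32 log2 fold changes ran from -0.42 at the lowest bound to 0.44 at the highest, that is, from -25.4% to 35.8% of the WT_CTCF level, and their median half-width was 0.13 on the log2 scale. A 2-fold change in either direction was outside each of these intervals, while 26 of the 32 intervals held 0. In 11 members both MUT_CTCF libraries were below both WT_CTCF libraries (22.3% of all genes did so), and in 4 members, Med19, Cdk8, Med12 and Med13, both were above (22.3% of all genes). With 2 libraries in each group, the smallest two-sided p of an exact permutation test is 0.33, so a call depends on edgeR's estimate of spread from all genes.

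Over the 32 members, 13 log2 fold changes were above 0 (40.6%, beside 50.8% of all tested genes) and 19 below. Their median was -0.011, beside a median of 0.0034 over all tested genes. The values are given next by module. In the head, 10 of 11 tested members were below 0, with a median of -0.11, while 7997 of all 16264 genes tested were below 0. Of the 11 head members, 7 had both MUT_CTCF libraries below both WT_CTCF libraries, beside 22.3% of all genes tested. In the middle, 3 of 8 were below 0 (median 0.021), in the tail 3 of 5 (median -0.0039) and in the kinase module 2 of 7 (median 0.028), and Med14 was at -0.018. With Med27 to Med30 counted in the tail, the head median was -0.12 and the tail median -0.011. Leaving out a library in turn left 7 to 11 of the 11 head members below 0, with 8 below 0 without WT_CTCF replicate 1, 7 without MUT_CTCF replicate 2, and a head median of -0.064 without WT_CTCF replicate 1. These module values are descriptions, and no test of a module was made.

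**Figure D2:**
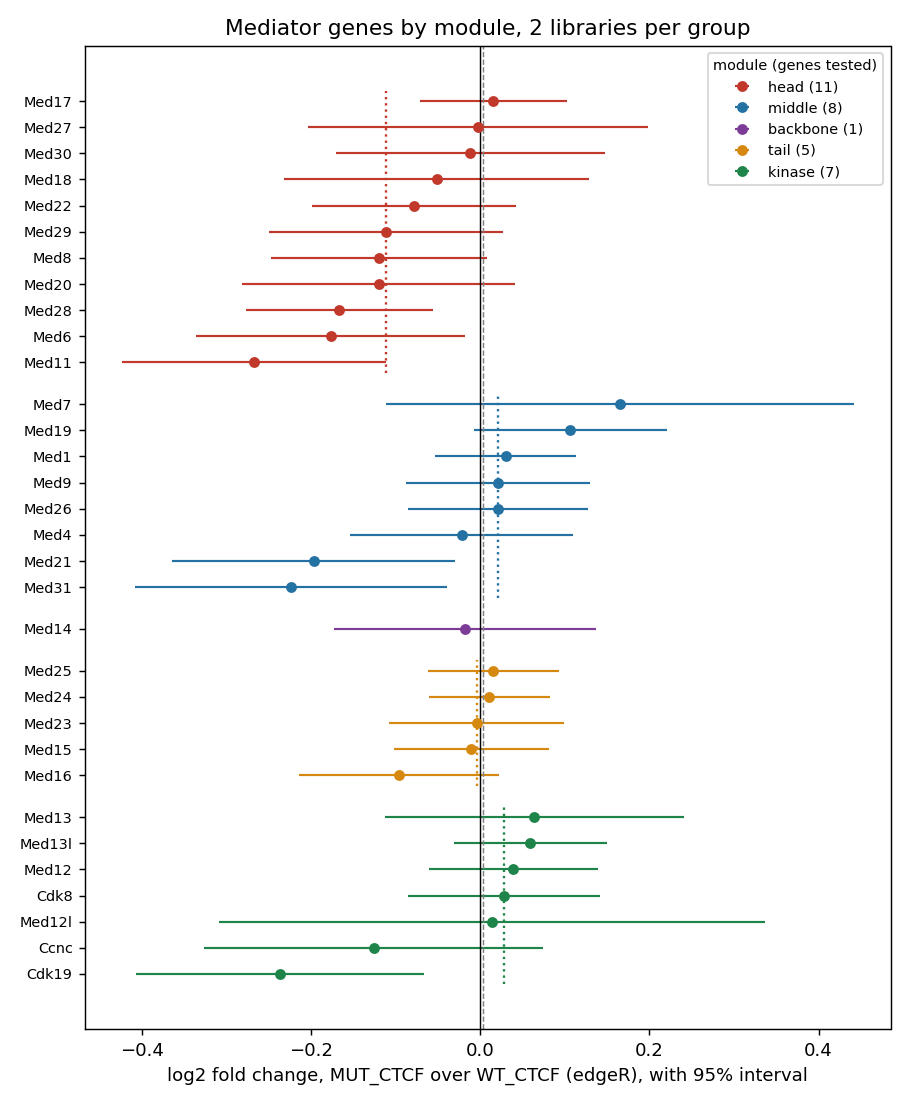
Log2 fold change of MUT_CTCF over WT_CTCF for each tested Mediator row with its 95% interval from edgeR, colored by module. Dotted lines mark the module medians and the dashed grey line the median of all tested genes (0.0034), and the head median lies at -0.11.

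In the head module, Med11, which forms a pair with Med22, had 1329 and 1304 normalized counts in WT_CTCF and 1119 and 1068 in MUT_CTCF mESCs. Both MUT_CTCF libraries were below both WT_CTCF libraries, by more than the 2 libraries of a group differed from each other. Its mean was 1317 ± 17.7 in WT_CTCF and 1094 ± 36.2 in MUT_CTCF mESCs (SD, n = 2), and Med11 (ENSMUSG00000018923, chr11:70265421-70267229 of mm9) fell by 16.9% (log2 fold change -0.27, SE, the standard error, 0.078, 95% interval -0.42 to -0.11, adjusted p = 0.0403, edgeR). The call lay near the threshold. It was lost with scaling by library size only (adjusted p = 0.0659), without the filter on low counts (0.265), by DESeq2 (0.0948) and whenever 1 library was left out (0.145 to 0.492), with fold changes of -0.24 to -0.30 in those fits, and adjusted p-values over all alternatives ran from 0.0198 to 0.492.

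Med22, the partner of Med11 in the head, had 2351 and 2220 normalized counts in WT_CTCF and 2133 and 2197 in MUT_CTCF mESCs, and it did not pass the test (log2 fold change -0.078, adjusted p = 0.604, edgeR). Med28 had 2958 and 3312 against 2870 and 2717 normalized counts. Its groups did not overlap, but the 2 WT_CTCF libraries differed from each other by more than the nearest libraries of the 2 groups. Its log2 fold change was -0.17 (SE 0.055, adjusted p = 0.0897, edgeR), and it passed without WT_CTCF replicate 1 (adjusted p = 0.0376) and was at -0.083 without WT_CTCF replicate 2 (adjusted p = 0.709). Med6, a head subunit conserved from yeast, had 1325 and 1192 against 1093 and 1133 normalized counts (log2 fold change -0.18, SE 0.08, adjusted p = 0.269, edgeR). Without WT_CTCF replicate 1 its log2 fold change was -0.099.

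The head members that were closest to 0 included the scaffold of the module. Med17, around which the head is assembled, had 5099 and 5003 normalized counts in WT_CTCF and 5267 and 4946 in MUT_CTCF mESCs, and its log2 fold change was 0.016 with a 95% interval of -0.071 to 0.10. Med30 was at -0.011 (-0.17 to 0.15) and Med27 at -0.0028 (-0.20 to 0.20). In all 3 genes the groups overlapped. Between these and the lower ones lay Med8 (-0.12), Med20 (-0.12) and Med29 (-0.11), each with both MUT_CTCF libraries below both WT_CTCF libraries, and Med18 (-0.051), whose groups overlapped. Med18 and Med20 form the movable jaw of the head, and Med8 tethers them to it. Adjusted p-values of these 4 genes were 0.378, 0.523, 0.476 and 0.863 in that order (edgeR).

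**Figure D3:**
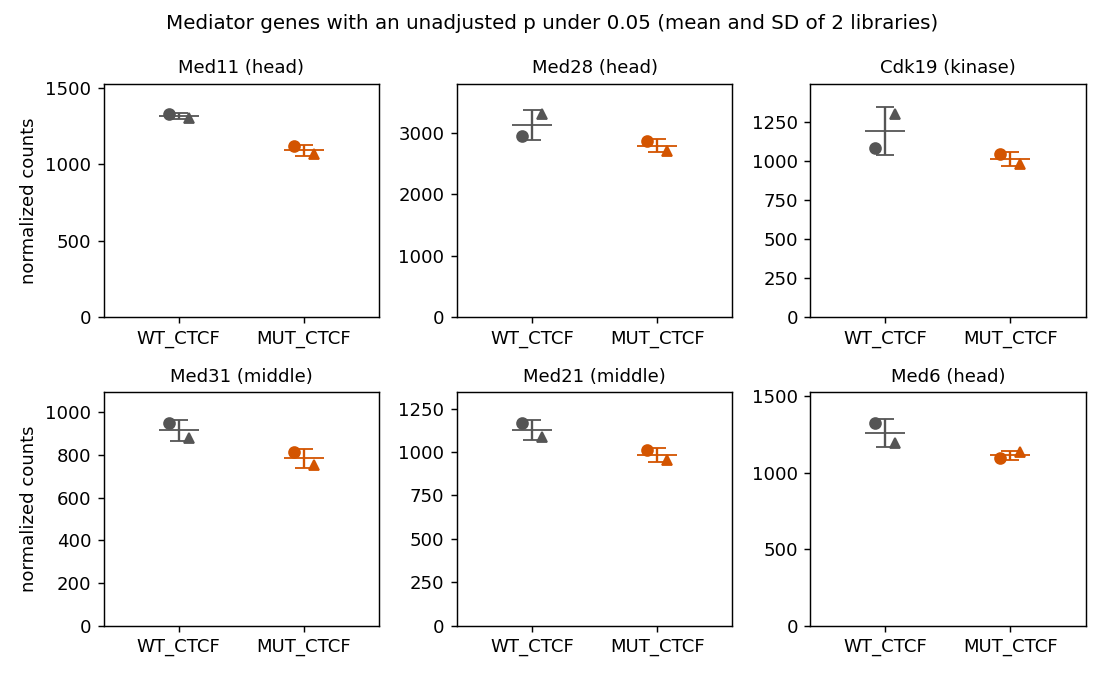
Normalized counts of the 6 Mediator genes with an unadjusted p under 0.05, in order of p, each axis starting at 0. Circles are library 1 and triangles library 2 of each group, and bars give the mean and SD of 2 libraries. Med11 went from 1317 to 1094 on average, and in Med28 and Cdk19 the 2 WT_CTCF libraries lie apart.

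In the middle module, Med21 and Med31 were lower and the others near or above 0. Med21, which forms with Med7 the hinge of the middle module, had 1168 and 1087 normalized counts in WT_CTCF and 1013 and 954 in MUT_CTCF mESCs. The groups did not overlap, and the log2 fold change was -0.20 (SE 0.083, adjusted p = 0.226, edgeR). Med31, a small subunit that binds Med7, had 950 and 880 against 815 and 752 normalized counts, also without overlap, and a log2 fold change of -0.22 (SE 0.092, adjusted p = 0.206, edgeR). Neither had an adjusted p under 0.05 in any alternative that gave one, and DESeq2 gave none for these genes. Med7 itself had only 312 and 386 against 429 and 354 normalized counts, and its log2 fold change of 0.17 had a wide interval (-0.11 to 0.44) and ran from 0.019 to 0.32 with a library left out.

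Med19, which binds the repressor REST, had 2417 and 2372 normalized counts in WT_CTCF and 2521 and 2636 in MUT_CTCF mESCs, with both MUT_CTCF libraries above, and a log2 fold change of 0.11 (SE 0.057, adjusted p = 0.376, edgeR). Med4, the other gene printed for its CTCF match, had 1785 and 1835 against 1831 and 1734 normalized counts, so its groups overlapped, and its log2 fold change was -0.022 (-0.15 to 0.11). Med1, the subunit that binds nuclear receptors and marks super-enhancers in mESCs, had 5505 and 5474 against 5724 and 5485 normalized counts. Its groups overlapped, and its log2 fold change was 0.030 with a 95% interval of -0.053 to 0.11. Med26, which recruits elongation factors to the polymerase, was at 0.021 (-0.085 to 0.13), and Med9 at 0.022 (-0.087 to 0.13).

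In the 5 tail genes and Med14 the groups overlapped. Med24 had 8453 and 8443 normalized counts in WT_CTCF and 8318 and 8705 in MUT_CTCF mESCs, and its log2 fold change was 0.011 with a 95% interval of -0.061 to 0.082, the narrowest of the members. Med25 was at 0.016 (-0.062 to 0.093), Med15 at -0.011 (-0.10 to 0.081) and Med23, a target of activators downstream of MAP kinase signalling, at -0.0039 (-0.11 to 0.10). Med16 was the lowest of the tail, with 2897 and 2514 against 2576 and 2486 normalized counts and a log2 fold change of -0.096 (adjusted p = 0.468, edgeR), and its 2 WT_CTCF libraries differed more from each other than the group means did. Without WT_CTCF replicate 1 its log2 fold change was 0.0092. Med14 had 1242 and 1206 against 1214 and 1203 normalized counts and was at -0.018 (-0.17 to 0.14).

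In the kinase module, Cdk19, 1 of the alternative kinases, had 1084 and 1301 normalized counts in WT_CTCF and 1045 and 979 in MUT_CTCF mESCs. The groups did not overlap, but WT_CTCF replicate 2 lay far above the other 3 libraries. Its log2 fold change was -0.24 (SE 0.085, adjusted p = 0.127, edgeR), and it was -0.36 without WT_CTCF replicate 1, where it passed (adjusted p = 0.0393), and -0.10 without WT_CTCF replicate 2 (adjusted p = 0.786). Cdk8, the other kinase, had 2436 and 2509 against 2528 and 2513 normalized counts and a log2 fold change of 0.028 (-0.086 to 0.14). Ccnc, the cyclin that activates both kinases, had 752 and 703 against 649 and 684 normalized counts, without overlap, and was at -0.13 (SE 0.10, adjusted p = 0.621, edgeR).

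Med12, which activates the kinase, had 3371 and 3285 against 3408 and 3430 normalized counts, and Med13, which holds the kinase module to the core, had 871 and 907 against 938 and 921. In both the MUT_CTCF libraries were above the WT_CTCF libraries by little, with log2 fold changes of 0.039 (adjusted p = 0.797, edgeR) and 0.064 (adjusted p = 0.814, edgeR). Med13l was at 0.059 (-0.031 to 0.15) with 4431 and 4854 against 4796 and 4879 normalized counts. Med12l was at 0.014 with a wide interval (-0.31 to 0.34) at 258 and 243 against 273 and 233 normalized counts.

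The kinase module has 3 pairs of paralogs, of which a complex holds only 1 member of each pair. Per length, Cdk8 was at 3.39 times the level of Cdk19, Med12 at 18.1 times that of Med12l, and Med13l at 6.06 times that of Med13, as means over the 4 libraries. Cdk19 made up 22.9% and 25.7% of its pair in WT_CTCF and 21.6% and 20.7% in MUT_CTCF mESCs. Both MUT_CTCF libraries were below, and the exact two-sided permutation p was 0.33, the smallest that 2 against 2 libraries can give. Med12l made up 5.37% and 5.18% against 5.59% and 4.79% of its pair, and Med13l 85.5% and 86.2% against 85.6% and 86.0% (exact permutation p = 1 for each). In both pairs the groups overlapped.

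Log2 fold changes were also set beside the exon length of each gene. Spearman's rho between log2 fold change and exon length was 0.321 across the 32 members and 0.0893 across the 14654 tested protein-coding genes, with all points sharing the same 4 libraries. Of the 5 members with up to 1500 bp of exon (Med4, Med6, Med11, Med29 and Med30), 5 were below 0 with a median of -0.11, and 58.7% of the 1774 protein-coding genes of that length were below 0 with a median of -0.038. Of the 7 members of 1500 to 3000 bp, 3 were below 0 with a median of 0.0155. Of the 4142 genes of that length, 51.6% were below 0, with a median of -0.0057. Of the 12 members of 3000 to 6000 bp, 9 were below 0 with a median of -0.044. Of the 5774 genes of that length, only 46.7% were below 0, with a median of 0.010. Of the 8 members over 6000 bp, 2 were below 0 with a median of 0.022. Of the 2964 genes of that length, 43.0% were below 0, with a median of 0.020. The rho of the members was 0.227 to 0.344 with a library left out, and that of all genes 0.0509 to 0.11. The part of gene length in the head module's values was not tested.

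**Figure D4:**
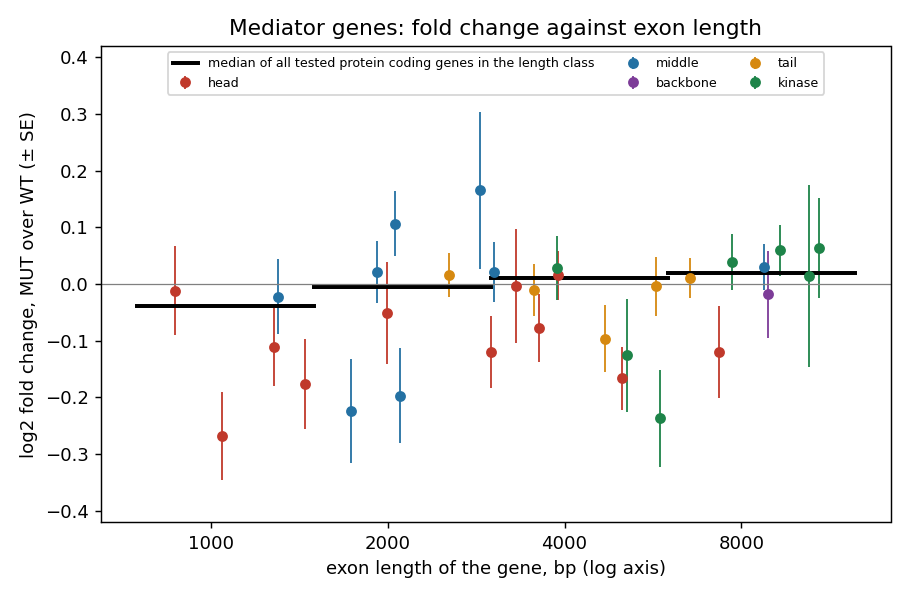
Log2 fold change of each tested Mediator row (± SE) against its exon length in bp (log axis), colored by module, with black bars for the median of all tested protein-coding genes in 4 length classes. Those medians rise from -0.038 in the shortest class to 0.020 in the longest, and the 5 shortest Mediator genes are below 0.

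Other genes of the transcription machinery were read for comparison. Their counts stand beside all 16264 genes tested, of which 1.61% were lower and 1.56% higher at an adjusted p under 0.05 (edgeR). At an unadjusted p under 0.05, 7.65% of all genes were lower and 7.61% higher. Of 12 RNA polymerase II subunits tested, 1 was lower, Polr2b, the second largest subunit, with 7651 and 7365 normalized counts in WT_CTCF and 6875 and 6848 in MUT_CTCF mESCs (log2 fold change -0.13, adjusted p = 0.0378, edgeR), and the median of the 12 was -0.073, with 2 lower and 0 higher at an unadjusted p under 0.05. Of 34 rows of general transcription factors, 1 was lower, the TFIID subunit Taf7 (-0.18, adjusted p = 0.0325, edgeR), and the median was -0.043, with 6 lower and 1 higher at an unadjusted p under 0.05. Of 21 pausing and elongation factors matched, 2 were lower, Supt6h (-0.12, adjusted p = 0.0169, edgeR) and Hexim1, the inhibitor of P-TEFb (-0.16, adjusted p = 0.0255, edgeR), and the median was -0.053, with 4 lower and 1 higher at an unadjusted p under 0.05. Of 9 acetyltransferase and nuclear receptor coactivators, 0 passed in edgeR, by its exact test or, for the 8 with an adjusted p, in DESeq2, 1 was higher at an unadjusted p under 0.05, and the median was 0.0043. None of these genes was higher at an adjusted p under 0.05. Polr2b, Taf7, Supt6h and Hexim1 were also called by edgeR's exact test. DESeq2 called Supt6h and Hexim1 but neither Polr2b nor Taf7. These calls, like that of Med11, were of small changes.

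Mediator genes lay on 17 chromosomes. Chromosome 11 held 7 of the 33 symbols (Med1, Med7, Med9, Med11, Med13, Med24 and Med31), or 21.2% beside 8.45% of tested protein-coding genes. Of these 7, Med11 passed the test and Med31 was lower at an unadjusted p under 0.05, while the other 5 were between 0.011 and 0.17 on the log2 scale. In 7 of the 32 tested rows (21.9%, beside 12.8% of tested protein-coding genes) the start lay within 1000 bp of the start of a gene on the opposite strand. Among the neighbours tested were Bysl beside Med20 (log2 fold change 0.030), Rpl7a beside Med22 (-0.048) and Paf1, an elongation factor gene, beside Med29 (-0.10), and none of these 3 passed edgeR's test at an adjusted p under 0.05.

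In 14 of the 34 rows exons were shared with another annotated gene, in 11 of them with a gene on the opposite strand. Whether strand was used in counting is not given in the sources used here, so reads of such genes may not be told apart. The shares were largest for Med10 (96.3% of its exon bases), for the 2 Med20 rows (79.3% and 28.4%) and for Med31 (26.3%, with the lincRNA 4930563E22Rik). The lincRNA had 21 and 19 counts in WT_CTCF and 24 and 38 in MUT_CTCF mESCs, and it lies opposite the Med31 gene, which had 748 to 948 counts.

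Med10, a subunit of the middle module that is conserved from yeast, had 1 and 0 counts in WT_CTCF and 0 and 0 in MUT_CTCF mESCs, and was not tested. A count of 0 allows up to 3 counts per library. Of its 862 exon bases (ENSMUSG00000021598, chr13:69948760-69954972 of mm9), 830 are also exon bases of the lincRNA Gm17282 on the opposite strand, and 32 are its own. Gm17282 had 254 and 253 counts in WT_CTCF and 244 and 235 in MUT_CTCF mESCs. Among 50 protein-coding genes with at least 90% of their exon bases shared with opposite-strand genes, 48 (96.0%) had at most 10 counts in the 4 libraries together, and 43 had 0. Among 18872 genes with under 1% shared, 5804 (30.8%) had at most 10 counts. These counts give no level of Med10 RNA.

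**Figure D5:**
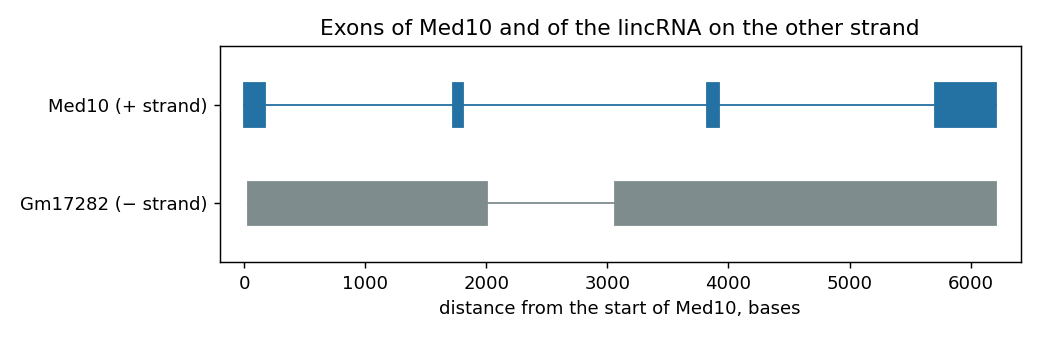
Exons (boxes) and introns (lines) of Med10 on the plus strand and of the lincRNA Gm17282 on the minus strand, drawn to scale against distance from the start of Med10 in bases. All but the first 32 bases of the Med10 exons lie over exons of Gm17282.

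Med20 was carried by 2 rows. ENSMUSG00000092558 held the counts described above, with 1177 and 1145 in WT_CTCF and 1064 and 1081 in MUT_CTCF mESCs before scaling. ENSMUSG00000023984, which starts at nearly the same place on chromosome 17 and runs on into Usp49, had 3 and 6 counts in WT_CTCF and 0 and 1 in MUT_CTCF mESCs and was not tested. Of its 7683 exon bases, 5580 are shared with Usp49, which had 370 and 375 against 406 and 433 counts, and 513 with the other Med20 row.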

How the data were processed

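RNA-seq libraries of WT_CTCF and MUT_CTCF mESCs, 2 each, were compared. Reads were trimmed with Trim Galore 0.4.4 and aligned to mm9 with STAR, and the authors deposited raw counts of uniquely mapped reads per gene from HTSeq 0.9.1, without normalization. The strand setting is not given in the sources used here. The authors' own edgeR table (log2 fold change, average log2 expression, p-values and false discovery rates) was not used. Of 37620 identifiers, 37205 were named by GENCODE M1.

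Genes were filtered by edgeR's filterByExpr (minimum count 10), scaled by TMM (factors 0.994 to 1.01) and tested with glmQLFit and glmQLFTest (edgeR 4.0.16, R 4.3.3) on condition alone, with Benjamini-Hochberg adjustment over 16264 genes. A standard error is the size of the log2 fold change over the root of F. Normalized counts were brought to the size of the mean library, and TPM used the union of a gene's exons. The fit was also run on simulated counts drawn with a spread based on these data, which cannot test whether the calls hold. Libraries of a group differed by more than sampling noise (chi-square per degree of freedom 3.61 and 4.27).

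Members and lists were chosen with earlier results of these data known. Named were every member, Ctcf, list members with an adjusted p under 0.05 (at most 5 per list) and genes whose exons overlap a member's. The length classes, divergent starts, exon overlaps and promoter motifs were chosen after seeing the data. Alternatives were edgeR's exact test, DESeq2 1.42.0, its size factors in edgeR, library size only, no filter, a replicate block, at least 10 reads in every library, each library left out, other lengths and other module assignments. Intervals are 95%, and the floor of a count of 0 is 3 counts, for counting error only.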

Additional observations from a re-analysis of the deposited data

How the results depend on the processing

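Directions held for 16 of 32 members in every alternative, and 3 members (Med11, Med28 and Cdk19) had an adjusted p under 0.05 in at least 1. The cause of a change was not tested. The count of lower Mediator genes was 0 with library size only, without the filter, by DESeq2 (which gave an adjusted p for 20 of the 32) and at the study's criterion, 6 at an unadjusted p under 0.05, and 0 to 2 with a library left out, where the lone library is assumed to vary like the other group. With the replicate block it was 2 (Med11 and Med28), and the replicate numbers do not pair the libraries by any label. Deviations of the libraries numbered 1 from their group means had a correlation of -0.019 over 16264 genes. Over all tested genes, 262 lower calls became 152 with library size only, 3 without the filter and 0 to 102 with a library left out, and 253 higher calls became 117 by DESeq2, 26 without the filter and 0 to 140 with a library left out. Calls among polymerase subunits were 0 with library size only, without the filter, by DESeq2 and with any library left out. Calls among general transcription factors were 0 in those same fits and 2 with at least 10 reads in every library and with the block, and calls among elongation factors were 1 with library size only, 0 without the filter and 0 to 1 with a library left out. With library size only the median of the members was 0.0014, and Med27 (0.0097), Med30 (0.0011), Med15 (0.0018) and Med23 (0.0086) turned above 0. With a library left out, medians ran from -0.11 to -0.064 in the head, -0.011 to 0.022 in the middle, -0.028 to 0.0092 in the tail, 0.0063 to 0.033 in the kinase module and -0.044 to 0.0039 over all members. Log2 fold changes that changed sign with a library left out, none of them called, ran from -0.030 to 0.059 (Med17), -0.13 to 0.024 (Med18), -0.068 to 0.058 (Med27), -0.039 to 0.015 (Med30), -0.0010 to 0.059 (Med1), -0.062 to 0.015 (Med4), -0.048 to 0.087 (Med9), -0.037 to 0.075 (Med26), -0.040 to 0.0029 (Med14), -0.028 to 0.0048 (Med15), -0.20 to 0.0092 (Med16), -0.044 to 0.036 (Med23), -0.024 to 0.043 (Med24), -0.045 to 0.072 (Med25), -0.10 to 0.12 (Med12l) and -0.0054 to 0.13 (Med13l). Among members that kept their sign, the value moved by over 1.5 times with a library left out for Med6 (-0.25 to -0.099), Med8 (-0.16 to -0.079), Med22 (-0.12 to -0.037), Med28 (-0.25 to -0.083), Med29 (-0.19 to -0.035), Med7 (0.019 to 0.32), Ccnc (-0.17 to -0.076), Cdk8 (0.0063 to 0.048), Med12 (0.019 to 0.058), Med13 (0.035 to 0.092) and Cdk19 (-0.36 to -0.10). The summed level in WT_CTCF was 1510 TPM by longest transcript. It was 1630 TPM with the same counts divided by the length of exons that no other gene shares, an alternative chosen after seeing the data. In WT_CTCF the share of Cdk19 was 32.5% from counts not divided by length, that of Med12l 7.0% and that of Med13l 83.9%. With the same counts divided by the length of unshared exons, those of Med12l and Med13l were 5.65% and 84.9%. Members with few counts were measured least precisely, from 232 counts at the lowest to 8663 at the highest.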
